A study of Mus musculus with 6 samples.

Results

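Transcripts of 10 inducible regulators were followed in macrophages that had been grown from mouse bone marrow. The 10 are the AP-1 genes Fos, Fosl2, Jun, Junb and Jund, the zinc finger genes Egr1, Klf2 and Klf4, the proto-oncogene Myc, and Ier3, an early response gene that encodes no transcription factor. They were taken by symbol from 25206 probe sets, each standing for 1 Entrez gene number, and all 10 were found, each on 1 probe set. RNA came from 3 control samples, labelled as untreated, and from 3 samples exposed over 16 hours to 0.3 micromole of JG-98, which inhibits the Hsp70 chaperones. No volume goes with that amount in the labels, and neither a vehicle nor the strain, sex or age of the mice is named there. Each RNA sample was hybridised to 1 Affymetrix array. Separate animals or cultures are not stated for the replicates, and each p-value below is therefore set by a spread that may be only technical.

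AP-1 is a dimer of a Jun family protein with a Fos family protein or with another Jun, held together by leucine zippers, that binds DNA. Fos, Jun, Junb, Egr1, Klf2, Klf4, Myc and Ier3 belong to the immediate early genes, whose transcripts appear soon after a growth factor, stress or microbial signal without new protein synthesis, and usually decay again as fast. MAP kinases, which act on serum response factor and its partners, switch many of them on. In macrophages, AP-1 and Egr1 act on inflammatory and matrix-degrading genes, Klf2 and Klf4 restrain inflammatory activation or guide monocyte differentiation, and Myc drives growth, ribosome production and metabolism. A sample taken at 16 hours holds their level at that time and not the first wave of induction.

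The deposited values are log2 expression values. Array medians lay between 4.08 and 4.24. JG-98 replicate 3 stood apart from the other 5 arrays: it correlated with them at 0.992 to 0.993 across probe sets, whereas they correlated with each other at 0.995 to 0.996. Results are therefore given with and without it. Macrophage markers had means of 8.36 to 12.03 over the 9 measured genes of 10 listed, with Cd68 the highest, and their summed level was 93.1 to 93.5 on control arrays and 92.4 to 92.8 on JG-98 arrays. C1qa, a complement gene of macrophages, differed by -0.24 ± 0.0658 and the efferocytosis receptor gene Mertk by -0.22 ± 0.0666 (log2 difference, JG-98 minus control, ± SE, n = 3 per group). Markers of 8 other cell types that marrow cultures can hold were mostly dim: the highest gene mean was 4.65 or lower in all of these lists except the endothelial one, where Vwf reached 6.38. Kdr of that list was also above 4.65, at means of 5.69 to 5.71. Vwf differed by 0.28 ± 0.0826 and Kdr by 0.02 ± 0.0838, and the summed level of the endothelial list was 22.1 to 22.7 on control arrays and 22.7 to 23.0 on JG-98 arrays. None of the 42 other-cell markers passed limma's test, and 4 had an unadjusted p under 0.05, against 8.32% of all probe sets. Whether the cell makeup takes part in any result was not tested. In such bulk RNA, fewer cells of a type and less RNA per cell cannot be told apart.

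Of the 10 regulators, Klf4, Myc and Jund were higher with JG-98, by 1.39-fold, 1.38-fold and 1.28-fold, and Ier3 was 1.3-fold lower. Fos was slightly higher, and Fosl2, Jun, Junb, Egr1 and Klf2 had overlapping groups. None of the 10 passed limma's test at an adjusted p under 0.05 (0 of 10, against 0.0397% of all probe sets, which is 10 of 25206). At an unadjusted p under 0.05 there were 4 of 10, against 8.32% of all probe sets. These were Klf4, Myc and Jund, which were higher (3.84% of all probe sets), and Ier3, which was lower (4.48%). All JG-98 values lay above all control values for 4 members (7.12% of all probe sets) and below them for 1 (8.44%), so that 5 of 10 had separate groups against 15.6%. These shares are over probe sets of every level, dim ones included, whereas all 10 members lay above the 60th percentile of mean level. Such shares were not taken among probe sets of like level. Without JG-98 replicate 3, limma again called 0 of 10 members (0.0198% of all probe sets), and 6 of 10 had separate groups (30.4%). The median member differed by 0.08 on the log2 scale, and the median of all probe sets by 0.001. Leaving out JG-98 replicate 3 gave a member median of 0.04, and leaving out control replicate 1 gave 0.12. Of the 10 members 7 were above 0, and 5 without JG-98 replicate 3 (6 after median centring).

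**Figure D1:**
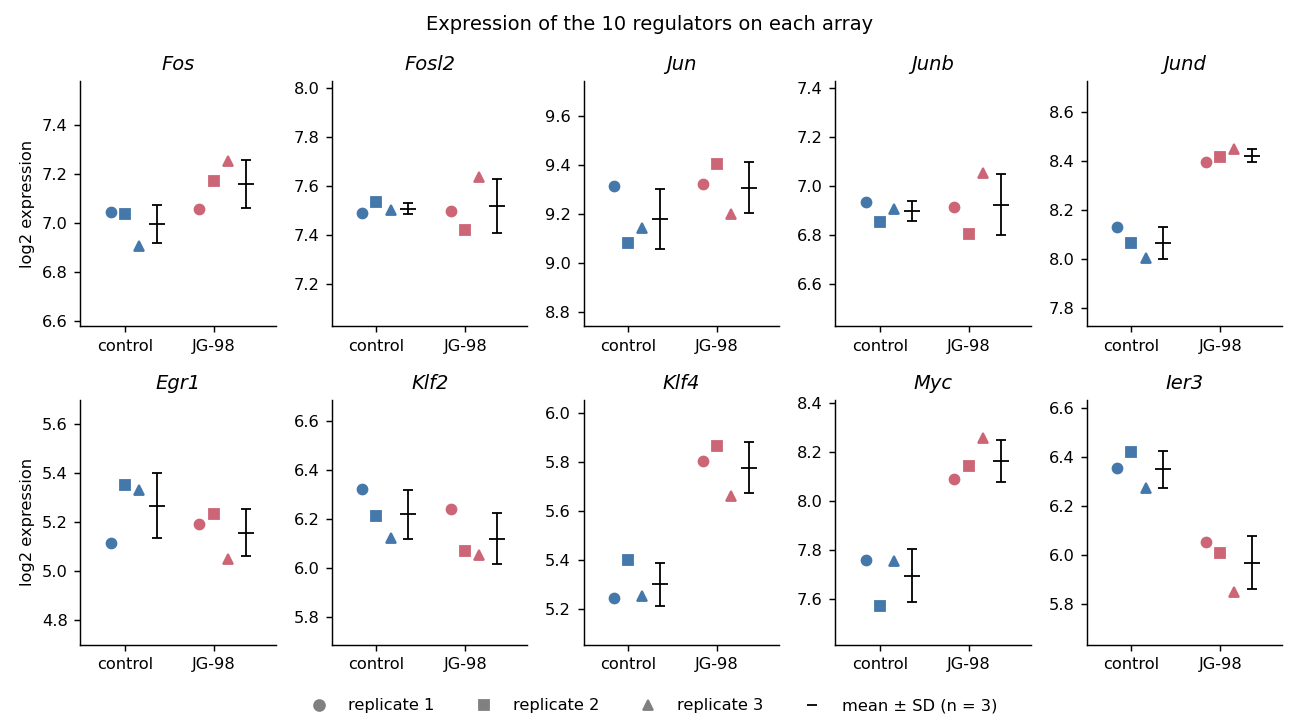
Log2 expression (vertical axes, each spanning 1 log2 unit) of each of the 10 regulators on the 3 control (blue) and 3 JG-98 (red) arrays, with marker shapes for replicate numbers and black bars for mean ± SD. The groups are widely separate for Jund, Klf4, Myc and Ier3, nearly touch for Fos, and overlap for Fosl2, Jun, Junb, Egr1 and Klf2.

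The calls differed between settings of the fit and between the sets of probe sets tested. When only the 10083 probe sets at or above the 60th percentile of mean level were tested, limma called 4 of the 10 (2.4% of those probe sets). Jund, Klf4 and Myc rose there, with limma adjusted p-values of 0.0249, 0.0296 and 0.031 (1.22% of those probe sets rose). Ier3 fell there, with a limma adjusted p of 0.0469 (1.18% fell). All 10 members lay above that level, which was 5.04. With a variance prior that follows intensity, limma called Jund and Myc (adjusted p = 0.0137 and 0.0165), against 1.01% of all probe sets called in either direction and 0.504% called higher, and Klf4 and Ier3 were at adjusted p = 0.0537 and 0.0748. No member was called under any of the other 12 settings, among them the 6 that leave out 1 array.

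**Figure D2:**
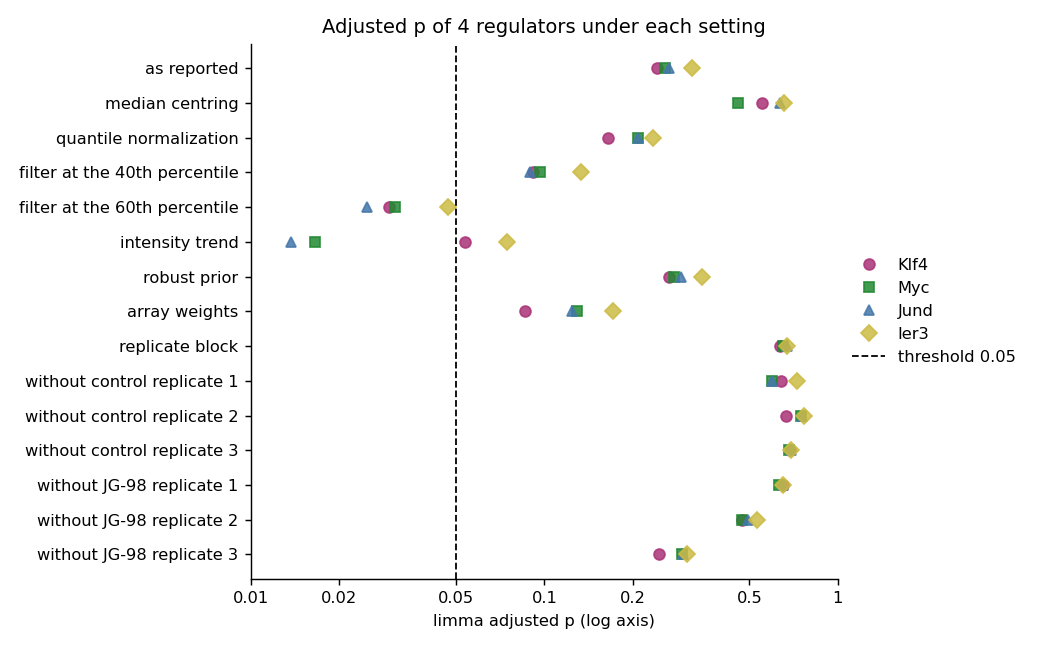
The limma adjusted p (horizontal log axis) of Klf4, Myc, Jund and Ier3 under the reported setting and 14 others (rows), with the threshold of 0.05 as a dashed line. All 4 lie left of the line with the filter at the 60th percentile, Jund and Myc also with an intensity trend, and all 4 lie right of it in every other row.

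Among the AP-1 genes, the Fos family subunits moved little. Fos, the subunit that gives the classical dimer its strong activity, was at 7.05, 7.04 and 6.91 on control replicates 1 to 3 and at 7.05, 7.17 and 7.25 on JG-98 replicates 1 to 3. All its JG-98 values were above its control values, but by a gap of only 0.00971 on the log2 scale, and after median centring of the arrays the groups were no longer separate. The log2 difference was 0.16 ± 0.081 (95% interval -0.03 to 0.36, limma adjusted p = 0.669), and 0.12 without JG-98 replicate 3. Fosl2, a Fos relative that lacks a strong activation domain, was at 7.49, 7.53 and 7.50 on controls and at 7.50, 7.42 and 7.64 with JG-98. Its JG-98 arrays lay on both sides of its controls. JG-98 minus control was 0.01 ± 0.0768 on the log2 scale (95% interval -0.17 to 0.19) and -0.05 without JG-98 replicate 3, so its sign rested on that array. It was also below 0 after median centring.

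Within the Jun family, Jund differed most. Jund, the member usually held at a steady level and often linked to slower growth, was at 8.13, 8.06 and 8.0 on controls and at 8.4, 8.42 and 8.45 with JG-98. Its lowest JG-98 array stood 0.265 above its highest control. The log2 difference was 0.36 ± 0.0663 (95% interval 0.20 to 0.51, limma adjusted p = 0.267), and 0.34 without JG-98 replicate 3. It ranked 121 of 25206 probe sets by p. Jun, the founding member and the main partner of Fos, was at 9.31, 9.08 and 9.14 on controls and at 9.32, 9.40 and 9.20 with JG-98. Control replicate 1 was higher than JG-98 replicate 3, so the groups overlapped. JG-98 minus control was 0.13 ± 0.0923 on the log2 scale (95% interval -0.09 to 0.35, limma adjusted p = 0.778), and 0.18 without JG-98 replicate 3. Junb, a weaker activator that often opposes Jun, was at 6.93, 6.85 and 6.91 on controls and at 6.92, 6.81 and 7.05 with JG-98. It showed no separation, with a log2 difference of 0.03 ± 0.0826 (95% interval -0.17 to 0.22). Without JG-98 replicate 3 that difference was -0.04, so its sign too rested on that array.

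The groups of Jund were separate and those of its paralog Jun overlapped, and the bases before both start sites are shown side by side, from RefSeq on GRCm38.p6, 5′ to 3′ on the gene's strand. Jund covers chr8:70697489-70697738 on the plus strand, and Jun covers chr4:95052223-95052472 on the minus strand, each 250 bases ending at the base before the start. Capitals mark matches to any of the 8 motifs searched.
Jund: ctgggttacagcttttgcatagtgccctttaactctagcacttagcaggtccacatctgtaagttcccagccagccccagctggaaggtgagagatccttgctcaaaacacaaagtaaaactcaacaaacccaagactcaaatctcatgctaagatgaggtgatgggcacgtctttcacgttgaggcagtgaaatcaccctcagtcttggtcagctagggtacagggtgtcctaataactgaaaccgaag
Jun: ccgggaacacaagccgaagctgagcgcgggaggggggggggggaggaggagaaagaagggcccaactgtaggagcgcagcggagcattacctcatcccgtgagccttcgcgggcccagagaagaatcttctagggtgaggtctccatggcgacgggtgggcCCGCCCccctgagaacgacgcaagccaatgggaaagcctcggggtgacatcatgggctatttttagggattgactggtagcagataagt
The Jun window held 1 GC box (GGGCGG on either strand), 89 bases before the start. The Jund window held none of the motifs searched and was 47.6% G and C, against 61.2% for Jun.

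Among the zinc finger genes, Klf4, which guides monocyte differentiation and alternative activation, was at 5.25, 5.40 and 5.26 on controls and at 5.81, 5.87 and 5.66 with JG-98. Every JG-98 array exceeded every control, by at least 0.26. JG-98 minus control was 0.48 ± 0.0846 on the log2 scale (95% interval 0.27 to 0.68, limma adjusted p = 0.242). Its rank by p was 101 of 25206, and without JG-98 replicate 3 the difference was 0.53. Klf2, which restrains inflammatory activation of monocytes and macrophages, was at 6.32, 6.21 and 6.12 on controls and at 6.24, 6.07 and 6.05 with JG-98. Its groups overlapped, with the JG-98 arrays toward the lower end. The log2 difference was -0.10 ± 0.0873 (95% interval -0.31 to 0.11, limma adjusted p = 0.818), and -0.07 without JG-98 replicate 3. Egr1, an immediate early activator and regulator of monocyte differentiation, was at 5.11, 5.35 and 5.33 on controls and at 5.19, 5.23 and 5.05 with JG-98. Control replicate 1 was lower than JG-98 replicates 1 and 2. On the log2 scale the groups differed by -0.11 ± 0.0941 (95% interval -0.33 to 0.12, limma adjusted p = 0.814), and -0.05 without JG-98 replicate 3.

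The upstream bases of the Klf pair, of which Klf4 had separate and Klf2 overlapping groups, are shown from the same source, with Klf4 covering chr4:55532476-55532725 on the minus strand, and Klf2 covering chr8:72318812-72319061 on the plus strand. Klf proteins themselves bind GC-rich boxes, and capitals again mark the matches.
Klf4: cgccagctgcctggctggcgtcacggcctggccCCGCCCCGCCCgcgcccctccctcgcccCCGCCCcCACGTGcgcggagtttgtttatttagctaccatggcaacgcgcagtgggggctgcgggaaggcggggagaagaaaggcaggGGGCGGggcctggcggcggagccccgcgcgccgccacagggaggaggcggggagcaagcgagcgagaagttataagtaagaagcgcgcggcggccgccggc
Klf2: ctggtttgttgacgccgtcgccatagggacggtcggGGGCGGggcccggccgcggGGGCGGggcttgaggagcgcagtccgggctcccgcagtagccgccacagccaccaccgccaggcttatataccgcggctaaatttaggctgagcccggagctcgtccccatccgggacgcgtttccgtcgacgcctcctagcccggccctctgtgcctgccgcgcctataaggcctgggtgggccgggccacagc
The Klf4 window held 4 GC boxes, which begin 217, 212, 189 and 101 bases before the start and of which the first pair overlap by 1 base, and 1 E-box (CACGTG), the site of Myc and Max dimers, at 182. The Klf2 window held 2 GC boxes, at 214 and 195. Windows were on hand for 8 of the 10 members, and those of Egr1 and Myc were not examined. A GC box was present in 6 of these 8, and in 32.7% of all 32851 RefSeq windows of the same length. The 8 windows were 47.6% to 74% G and C, and only that of Jund lay below the median of all windows, 52.4%. Whether base composition accounts for the GC boxes was not tested. The E-box was present in 1 of 8 (6.02% of all), and the TATA box TATAAA in 1 of 8, that of Fos (12.4%). None of the 8 held the AP-1 site TGANTCA (6.75%), the cyclic AMP element core TGACGTC (2.78%), the Egr core site GTGGGCG (7.02%), the CArG box of serum response factor (1.47%) or the C/EBP-ATF element TGATGNAA (3.45%). A match is a description of the letters and not a bound site, and the lack of a match does not show that no site is present. Only matches to each motif's own letters were sought. Close variants were not counted, such as tgacatca in the Jun window and tgacgta in the Fos window. Bases upstream of the windows were not searched.

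Myc, which drives growth and ribosome production as a dimer with Max, was at 7.76, 7.57 and 7.75 on controls and at 8.09, 8.14 and 8.26 with JG-98. The gap of 0.329 between its groups was the widest of the 10 members. The log2 difference was 0.47 ± 0.0852 (95% interval 0.27 to 0.67, limma adjusted p = 0.258). It ranked 107 of 25206, and without JG-98 replicate 3 the difference was 0.42. Ier3, which encodes a small stress-inducible membrane-bound protein that acts on cell survival and ERK signalling, was at 6.36, 6.42 and 6.27 on controls and at 6.05, 6.01 and 5.85 with JG-98. It was the only one of the 10 with all JG-98 arrays below all controls. On the log2 scale the groups differed by -0.38 ± 0.0829 (95% interval -0.58 to -0.18, limma adjusted p = 0.319). It ranked 228 of 25206, and without JG-98 replicate 3 the difference was -0.32.

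**Figure D3:**
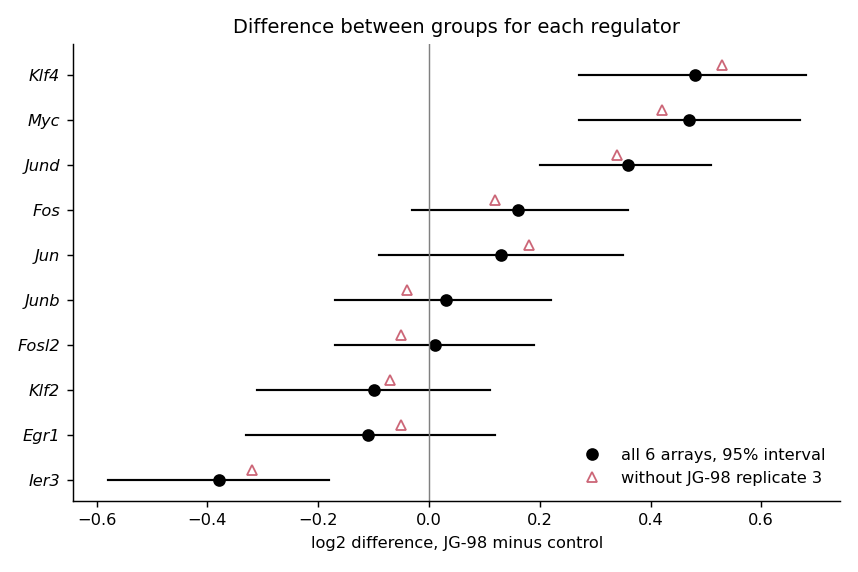
Log2 difference between JG-98 and control (horizontal axis) for each regulator, with all 6 arrays (black points, bars for limma's 95% interval of each gene alone, not adjusted for the number of genes) and without JG-98 replicate 3 (open triangles). The intervals of Klf4, Myc, Jund and Ier3 do not reach 0, and the triangles of Junb and Fosl2 lie on the other side of 0 from their points.

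To ask whether close relatives responded unequally, the difference between their log2 values was taken on each array, in 5 pairs. The offset between 2 probe sets has no meaning as relative abundance, and only its change between groups is read. Klf4 minus Klf2 was -1.08, -0.81 and -0.87 on controls and -0.43, -0.20 and -0.39 with JG-98. That is a shift of 0.58 toward Klf4 with no overlap. Junb minus Jund was -1.20, -1.21 and -1.09 on controls and -1.48, -1.61 and -1.40 with JG-98, a shift of -0.33. Jun minus Jund shifted by -0.23 from a control mean of 1.11 ± 0.0871 (SD, n = 3). It was 1.18, 1.02 and 1.14 on controls and 0.93, 0.99 and 0.75 with JG-98, so these groups nearly touched. Jund therefore stood higher against both of its relatives on every JG-98 array than on any control. Both pairs use the same Jund values, so they are not separate observations of its rise. Fos minus Fosl2 shifted by 0.15 without overlap, from -0.45, -0.50 and -0.59 to -0.44, -0.25 and -0.38. Jun minus Junb shifted by 0.10 with overlap (exact two-sided permutation p = 0.6). For each of the other 4 pairs the exact permutation p (two-sided) was 0.1, the least that 3 against 3 samples can give, and an adjusted p of 0.125 over the 5 pairs, so none could pass 0.05 in this design.

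**Figure D4:**
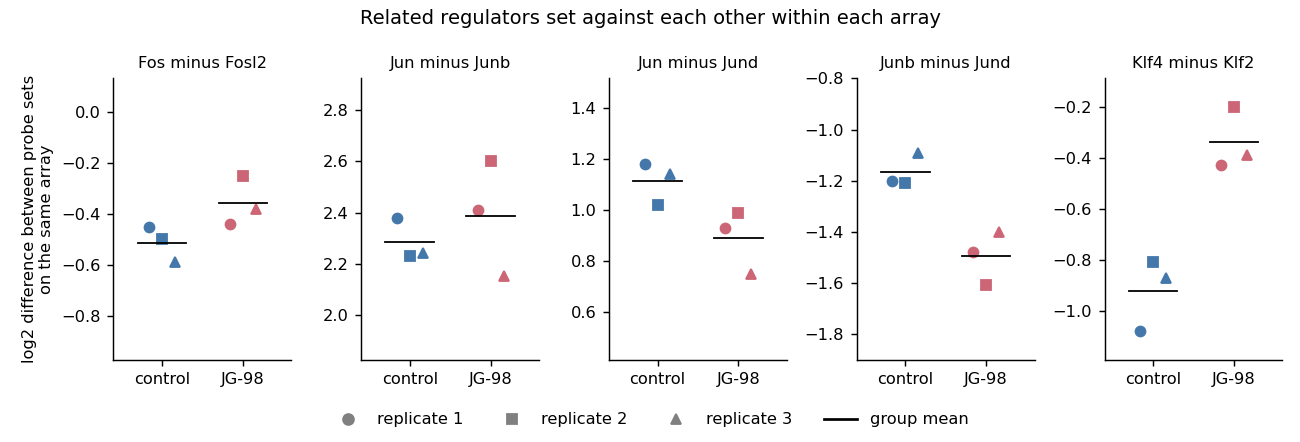
Difference in log2 value between 2 related probe sets on the same array (vertical axes, each spanning 1.1 log2 units) for 5 pairs of regulators, on control (blue) and JG-98 (red) arrays, with lines for group means. The groups are separate for every pair except Jun minus Junb, and the widest shift is that of Klf4 minus Klf2, from a mean of -0.92 to -0.34.

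The genes with the nearest profiles were sought over all named genes for the 4 members with an unadjusted p under 0.05, by the root mean square difference of log2 values over the 6 arrays after each gene's own mean was subtracted. Nearest to Klf4 were Plk2, a polo-like kinase gene (0.0185), and Gadd45g, a growth arrest gene (0.0382), against a median of 0.285 over named genes. Plk2 was at 6.83, 6.95 and 6.85 on controls and at 7.42, 7.46 and 7.25 with JG-98. Like Klf4, it was highest on JG-98 replicate 2 and lowest of the treated arrays on JG-98 replicate 3. Such likeness follows from the choice, because the nearest genes were picked over these same 6 arrays. The smallest of many distances also lies below the median by construction, so shared regulation was not tested. Nearest to Myc were Srm, the spermidine synthase gene (0.0373), and Id1, an inhibitor of helix-loop-helix factors (0.039). Nearest to Jund were Bcl2, an inhibitor of apoptosis (0.0275), and Spryd7 (0.0295). Nearest to Ier3 were Frat1, a regulator of Wnt signalling (0.00972), and Arhgap19, a GTPase-activating protein gene (0.0124). None of these 8 genes passed limma's test (adjusted p from 0.203 for Id1 to 0.348 for Frat1).

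Around the 10 regulators, 166 genes of 11 further lists were measured: family relatives, partners, upstream kinases and factors, and known targets. None passed limma's test, 37 had an unadjusted p under 0.05 (8.32% of all probe sets did) and 56 had separate groups (15.6%). With the filter at the 60th percentile, which 125 of them passed, 9 were called (2.4% of all 10083 probe sets that passed it were). With an intensity trend 12 of the 166 were called (1.01% of all probe sets). Another 10 listed genes were not analysed here. The lists, like the 10 regulators, were chosen with earlier results of these data known, so an excess over all probe sets is not independent evidence.

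Relatives of the AP-1 genes had a median difference of 0.02 over 13 genes (0.00 without JG-98 replicate 3). Atf3, a stress-induced factor that pairs with Jun proteins, was at 9.13, 9.18 and 9.19 on controls and at 9.35, 9.37 and 9.36 with JG-98, a log2 difference of 0.19 ± 0.0602 (limma adjusted p = 0.477). It rose with an intensity trend (limma adjusted p = 0.0397). Batf3, a factor of dendritic cell development, differed by 0.23 ± 0.0753 at means of 3.87 to 4.1, where background cannot be told apart. Maf and Mafk, basic leucine zipper genes of the Maf family, differed by -0.10 ± 0.0661 and -0.10 ± 0.0674. All 5 Egr relatives and Nab corepressors were above 0, with a median of 0.12, and 4 were so without JG-98 replicate 3. The corepressor genes Nab1 and Nab2, whose proteins bind and restrain Egr1, differed by 0.17 ± 0.074 and 0.12 ± 0.0649, both with separate groups. Egr2 was at 6.25, 6.42 and 6.45 on controls and at 6.76, 6.77 and 6.35 with JG-98, so that JG-98 replicate 3 lay among the controls. Its difference was 0.25 ± 0.132, and 0.39 without that array. Egr3 differed by 0.09 ± 0.0672 at means of 3.97 to 4.06.

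The 15 Klf relatives had a median of -0.06. Klf7 differed by 0.22 ± 0.0648 and Klf8 by -0.23 ± 0.0933, both with separate groups, and Klf9 by -0.11 ± 0.0693. Klf12 differed by 0.32 ± 0.198 at means of 2.04 to 2.36, where background cannot be told apart, and by 0.12 without JG-98 replicate 3. The difference of 0.48 for Klf4 was the largest among the 17 Klf genes measured here.

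Among the Myc relatives, Max and the factors that compete with Myc for it, 10 of 13 genes were below 0 (9 without JG-98 replicate 3 or after a further quantile normalization), with a median of -0.07 (-0.04 without JG-98 replicate 3). Mxd4, a Max partner that represses Myc targets, was at 7.60, 7.56 and 7.49 on controls and at 7.03, 6.87 and 6.40 with JG-98. All treated arrays were lower, and JG-98 replicate 3 was lowest. The log2 difference was -0.78 ± 0.16 (limma adjusted p = 0.294), and -0.60 without that array. Mxd4 fell with an intensity trend (limma adjusted p = 0.0357), as 0.504% of all probe sets did. Its relative Mxd1 differed by -0.25 ± 0.0842, the Max-binding repressor gene Mnt by -0.15 ± 0.0748, and Mycl, at means near 3, by -0.24 ± 0.129.

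Of 20 listed Myc targets, 20 were above 0, and 18 after median centring of the arrays, with a median of 0.19 (0.17 without JG-98 replicate 3). Of these, 9 had all JG-98 values above all controls (7.12% of all probe sets) and 8 had an unadjusted p under 0.05 and were higher (3.84%). The list was chosen with earlier results of these data known, so these shares are not independent evidence. Its lowest gene mean was 2.06, where background cannot be told apart. Srm, which makes spermidine, was at 8.12, 7.87 and 8.15 on controls and at 8.51, 8.50 and 8.64 with JG-98. Its groups were separate, with a log2 difference of 0.51 ± 0.0963 (limma adjusted p = 0.273). It rose with the filter at the 60th percentile and with an intensity trend (limma adjusted p = 0.0384 and 0.0187). The transferrin receptor gene Tfrc differed by 0.32 ± 0.0892, the chaperonin gene Hspd1 by 0.27 ± 0.0832, and Ccnd2, a cyclin D gene, by 0.23 ± 0.0701. At the other end, Cdk4 and Cad differed by 0.01 ± 0.0651 and 0.01 ± 0.0923, both chosen after their values were seen.

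Listed AP-1 targets had a median of 0.06 over 15 genes, with 6 separate upward (7.12% of all probe sets) and 1 separate downward (8.44%). Several of the 15 were dim, with a lowest gene mean of 2.4. Among those that passed the filter at the 60th percentile the median was 0.23. Ccl2, a monocyte-attracting chemokine gene, was at 8.09, 7.95 and 7.94 on controls and at 8.59, 8.61 and 8.54 with JG-98. It had the smallest limma adjusted p of the 166 genes, 0.126, at a log2 difference of 0.59 ± 0.0716, and it rose with either filter on dim probe sets, with an intensity trend and with array weights. The urokinase gene Plau and its receptor gene Plaur differed by 0.33 ± 0.078 and 0.46 ± 0.0887, both with separate groups. The cytokine gene Tnf differed by 0.26 ± 0.0648. Mmp13, a collagenase gene and textbook AP-1 target, was at 5.95, 5.87 and 5.87 on controls and at 5.48, 5.68 and 5.62 with JG-98, a log2 difference of -0.30 ± 0.0776, and was chosen after its values were seen. Targets of Klf2 and Klf4 were spread around 0, with a median of -0.01 over 12 genes. Among them, the cell cycle inhibitor gene Cdkn1c differed by 0.42 ± 0.112 and the mannose receptor gene Mrc1 by -0.22 ± 0.0738, both with separate groups. Cdkn1c was dim, at means of 4.28 to 4.7, and did not pass the filter at the 60th percentile. Thbd, the thrombomodulin gene, differed by -0.17 ± 0.0807, and Chil3, at means of 1.77 to 2.18, by 0.41 ± 0.256.

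**Figure D5:**
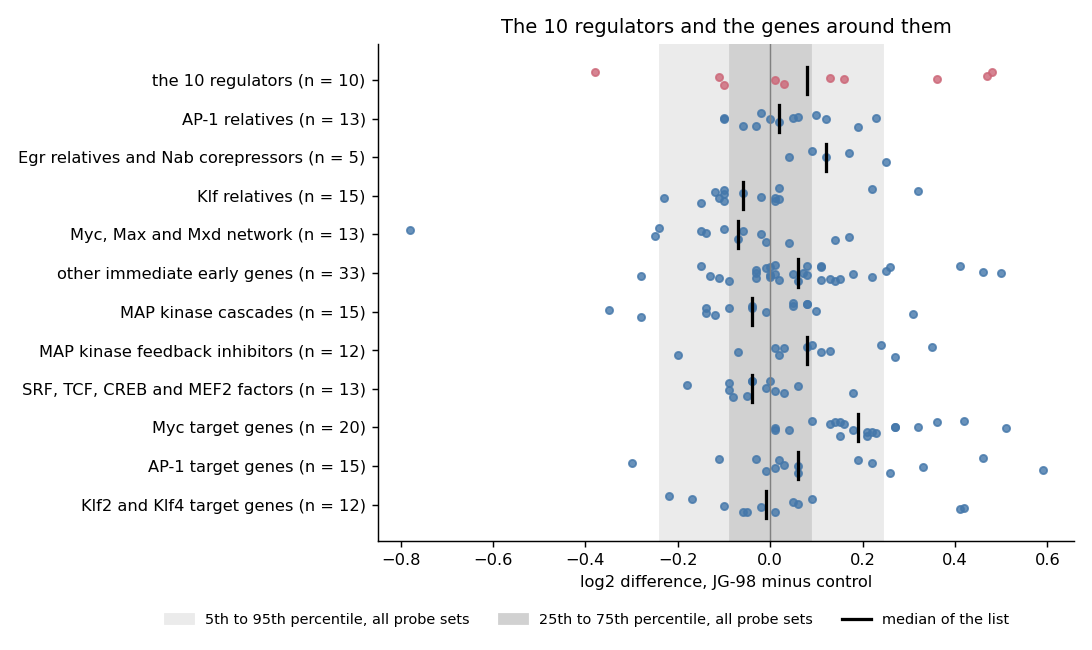
Log2 difference between JG-98 and control (horizontal axis) for each gene of the 10 regulators (red) and of the 11 further lists (blue), with black bars for list medians and grey bands for the central ranges of all 25206 probe sets (5th percentile -0.238, 95th percentile 0.243). Points are shifted vertically for legibility only; every Myc target lies above 0 (18 of 20 do after median centring), and 4 of the 10 regulators lie outside the wider band.

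Among the other immediate early genes 22 of 33 were above 0 (19 after median centring), with a median of 0.06. Plk3, a stress-responsive polo-like kinase gene, differed by 0.46 ± 0.0962, beside the 0.50 ± 0.0821 of Plk2. Ifrd1 differed by 0.41 ± 0.0911, and Btg2, an inhibitor of proliferation, by -0.28 ± 0.0653. Each of these 4 genes had separate groups, but they were named for the smallest adjusted p of their list. Over the 33 genes, 7 were separate upward (7.12% of all probe sets) and 4 downward (8.44%). Plk2, Plk3 and Btg2 were called with the filter at the 60th percentile (limma adjusted p = 0.0239, 0.0472 and 0.0414), and Ifrd1 with an intensity trend (0.0421). Of the 33, the filter gave 4 calls (2.4% of all probe sets that passed it) and the trend 3 (1.01% of all probe sets).

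Upstream of these genes, the 15 measured members of the MAP kinase cascades had a median of -0.04, which was 0.07 without JG-98 replicate 3. Map3k8, the kinase that links Toll-like receptors to ERK in macrophages, was at 6.81, 6.84 and 6.78 on controls and at 6.45, 6.51 and 6.40 with JG-98. The groups were far apart for their spread, with a log2 difference of -0.35 ± 0.0649 (limma adjusted p = 0.264). It fell with the filter at the 60th percentile and with an intensity trend (limma adjusted p = 0.0239 and 0.0396). The ERK-pathway kinase gene Braf differed by 0.31 ± 0.0826, and the p38 activator genes Map2k6 and Map2k3 by -0.28 ± 0.0902 and -0.14 ± 0.0708. Of 12 feedback inhibitors of MAP kinases, 10 were above 0 (9 after median centring), with a median of 0.08. The phosphatase gene Dusp4 differed by 0.35 ± 0.0929, Spred2 by 0.24 ± 0.0761 and Dusp8, at means of 3.78 to 4.05, by 0.27 ± 0.105. Dusp6, the phosphatase specific for ERK, was at 9.54, 9.55 and 9.57 on controls and at 9.34, 9.33 and 9.38 with JG-98, a log2 difference of -0.20 ± 0.0598. It fell with an intensity trend (limma adjusted p = 0.0301). The 13 transcription factors that act on immediate early promoters had a median of -0.04. Srf, the serum response factor gene, differed by 0.18 ± 0.0861, Mef2c by -0.18 ± 0.0679, Mrtfa, a coactivator of Srf, by -0.09 ± 0.0615, and Crem by -0.09 ± 0.073.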

How the data were processed

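The deposited values are on the log2 scale, with 1 for each probe set on each array. Per the submitters' processing notes, the authors used RMA, affy and R 2.15.1, whose roles are not stated. As generally defined, RMA corrects background, normalizes by quantiles and summarises probes, compresses differences of dim probe sets and removes a shift common to all genes. A genome build for the arrays and detection calls are not given in the sources used here, and the number of arrays limits the precision.

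The platform annotation named 23185 of 25206 probe sets, and symbols were updated by Entrez number through RefSeq (GRCm38.p6, in which 23185 matched). JG-98 was compared with control by a two-sided limma fit (lmFit, then eBayes; limma 3.58.1, R 4.3.3, statmod 1.5.0 for array weights), without covariates, with Benjamini-Hochberg adjustment over all 25206 probe sets and a threshold of 0.05. SEs and 95% intervals are the moderated ones. In 10 simulations of this comparison over 25206 probe sets, 200 were changed in each. The fit recovered 20.3% of changes of 0.5 on the log2 scale, 79.7% of changes of 1 and 97% of changes of 2. Of its calls, 5.09% were false. The simulated spreads were drawn from the fit's own variance prior, with independent genes and arrays of equal quality. That setting itself leads to a false share near the threshold. On the real arrays JG-98 replicate 3 stood apart, so these rates need not hold for them.

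The members and lists were chosen with earlier results of these data known. The text names the 10 members, the 4 genes of each described list with the smallest adjusted p and the 2 nearest profiles of members with an unadjusted p under 0.05. Any other gene named with values is marked or defines a cell type. Alternatives were median centring, a further quantile normalization, filters at the 40th and 60th percentiles of mean level, an intensity trend, a robust prior, array weights, a replicate block and leaving out each array.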

Additional observations from a re-analysis of the deposited data

How the results depend on the processing

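The 10 probe sets called over the whole array became 24 with the filter at the 40th percentile, 242 with that at the 60th, 254 with an intensity trend, 25 with array weights and 0 with a replicate block, and 0 to 5 without 1 array (5 without JG-98 replicate 3, 0 without any other). The count of called members, 0, became 4 with the filter at the 60th percentile and 2 with an intensity trend, and was 0 without any one array. The count of called genes in the further lists, 0, became 1 with the filter at the 40th percentile, 9 with that at the 60th, 12 with an intensity trend and 1 with array weights. The filters test fewer probe sets and also refit the variance prior. With the filter at the 60th percentile the SE of Jund was 0.0509, against 0.0663 over all probe sets. The cause of these changes in count was not tested. Under the 14 settings the differences of Klf4, Myc, Jund and Ier3 kept their sign, at 0.43 to 0.53, 0.41 to 0.51, 0.32 to 0.39 and -0.42 to -0.32, as did those of Fos, Jun, Egr1 and Klf2. Fosl2 turned to -0.009 after median centring and -0.017 with array weights, and lay at -0.048 to 0.059 without 1 array. Junb lay at -0.037 to 0.086, and Jun minus Junb at -0.006 to 0.22, without 1 array.

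List medians moved by more than their spread between arrays in these cases. For AP-1 relatives (0.022) it was 0.002 after median centring, 0.036 with the filter at the 40th percentile, 0.006 with array weights and 0.003 to 0.066 without 1 array. For Egr relatives (0.12) it was 0.15 and 0.17 with the filters at the 40th and 60th percentiles and 0.11 to 0.18 without 1 array. For AP-1 targets (0.06) it was 0.13 and 0.23 with these filters and 0.04 to 0.12 without 1 array. The filters only drop dim genes from a list and leave the log2 difference of each remaining gene unchanged. For MAP kinase cascades (-0.036) it was 0.049 with array weights and -0.082 to 0.069 without 1 array. For the factors that act on immediate early promoters (-0.038) it was -0.058 after median centring, -0.019 with array weights and -0.045 to -0.002 without 1 array. Without 1 array it was -0.054 to -0.018 for Klf relatives, -0.11 to -0.02 for the Myc network, 0.025 to 0.076 for other immediate early genes and 0.038 to 0.11 for feedback inhibitors.

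The labels link same-numbered samples by their number alone and do not say whether they were paired. Their deviations from the group means correlated at 0.0953, -0.126 and 0.104, and those of the other combinations at -0.228 to 0.203. With 3 arrays per group, such values cannot show whether samples shared a culture or batch. With the replicate block the adjusted p of Klf4 was 0.634. In the simulations, with 3 arrays per group, changes of 0.5 were mostly not called. Dim probe sets cannot be told from background.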
